A study of Homo sapiens with 6 samples.

Results

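The genes described here are the zinc finger genes of human chromosome 19, in HEYA8 cells with and without knockdown of ETS1. They were chosen as the rows of the deposited gene table named ZNF followed by a number, with at most 1 further letter, whose locus lies on chromosome 19, which gave 243 of the 20061 rows. Another 277 rows with such names lay elsewhere, and 1168 other rows lay on chromosome 19. HEYA8 is an established human ovarian cancer cell line, which the labels give as low grade serous carcinoma. Both groups expressed a hairpin RNA (shRNA) stably from an integrated lentivirus and were kept in puromycin. In the shETS1 group (3 samples) the hairpin targeted ETS1, and in the shLuciferase group (3 samples) it targeted luciferase, a gene that human cells lack. The labels give neither the number of hairpin sequences nor whether the 3 samples of a group came from separate transductions or cultures.

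Most zinc finger proteins of chromosome 19 bind DNA through a row of C2H2 fingers, small modules that each hold a zinc ion and read a few bases. Many also carry a KRAB box at the amino end, which recruits TRIM28 (KAP1), and TRIM28 brings the histone methyltransferase SETDB1, HP1 proteins and histone deacetylases that silence the bound site. The genes arose by repeated local duplication in primates and earlier mammals, stand in clusters along the chromosome, and are best known for silencing transposable elements. ETS1 is a transcription factor that binds promoters at a GGAA core, and its target sites in promoters often read CCGGAAG.

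The table held 1 level per gene and group, in FPKM (fragments, scaled by the length of the transcript and the depth of the library), which the authors computed over the 3 samples of each group. No value per sample was given, so no spread between samples could be computed here. Sequencing depth was also not given. The p-values quoted are those of the authors' test, and q is the p-value adjusted over the 11952 genes that the authors tested. ETS1 stood at 17.9 FPKM in shETS1 cells, against 41.4 FPKM in shLuciferase cells, and was called at q = 0.00964 in the authors' deposited table. The Müllerian marker PAX8 stood at 76.8 FPKM in shETS1 cells and 79.7 FPKM in shLuciferase cells, the keratins KRT8 and KRT18 were above 1000 FPKM in both, and the epithelial marker EPCAM was low, at 1.82 FPKM in shETS1 cells and 1.71 FPKM in shLuciferase cells. MUC1 was not tested, the leukocyte markers PTPRC and TYROBP were listed at 0 in both groups, and VIM, marked as having too much data, had no measurement in shETS1 cells and 7171 FPKM in shLuciferase cells.

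None of the zinc finger genes of chromosome 19 was called. Of the 243, 161 were tested, 82 were not, and 8 were listed at 0 FPKM in both groups. At q of at most 0.05 the authors' deposited table called 0 of the 161, while it called 97 of all 11952 tested genes, 0.812%. At an unadjusted p of at most 0.05 the authors' deposited table had 4 of the 161 higher in shETS1 cells (2.48%), where the share over all tested genes was 3.9%. In the same table, 3 of the 161 were lower in shETS1 cells (1.86%), where the share over all tested genes was 3.04%. Both shares rest on a few genes and were near those of the table as a whole. The 97 called genes differed by at least 1.83-fold, and 2 of the 161 zinc finger genes, ZNF550 and ZNF114, reached that size. In RNA from whole cultures, fewer cells expressing a gene and less of its RNA per cell cannot be told apart.

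Levels were low in both groups. The median over the 161 tested genes was 1.07 FPKM in shETS1 cells and 1.01 FPKM in shLuciferase cells. Only 24 of the 243 reached a mean of 5 FPKM over both groups. The highest level among the 82 untested genes was 0.470 FPKM, for ZNF724P in shETS1 cells. The median absolute difference was 0.18 on the log2 scale, against 0.19 over all tested genes, and 54.0% of the 161 lay within 0.2 log2 units of equality, against 51.9% of all tested genes. Low levels limit what the test could find: among all genes with a p between 0.04 and 0.06 in the authors' deposited table, the median difference was 1.70-fold under 0.5 FPKM, 1.54-fold from 1 to 2 FPKM and 1.39-fold from 20 FPKM.

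**Figure D1:**
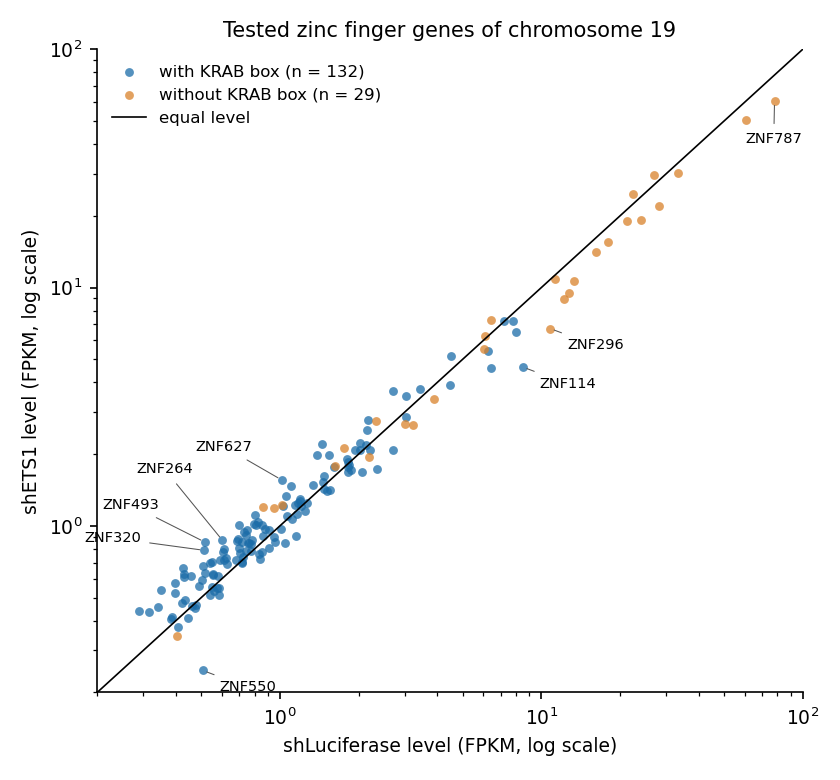
Level in shETS1 cells (vertical axis) against shLuciferase cells (horizontal axis), both in FPKM on log scales, for the 161 tested zinc finger genes of chromosome 19. Each point is 1 gene with 1 value per group, and the line marks equal levels. The 7 genes with an unadjusted p of at most 0.05 and the most abundant gene, ZNF787, are named. Genes under 1 FPKM lie mostly on or above the line, and the genes without a KRAB box at the upper right lie mostly below it.

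The 3 genes with an unadjusted p of at most 0.05 that were lower in shETS1 cells were ZNF114, ZNF296 and ZNF550. ZNF114, a KRAB gene with 3 fingers (hg19 chr19:48773356-48790863), stood at 4.64 FPKM in shETS1 cells and 8.50 FPKM in shLuciferase cells, 1.83-fold lower, with p = 9e-04 and q = 0.0827 in the authors' deposited table. It was the lone zinc finger gene of chromosome 19 with a q of at most 0.10, and no other member lay within 500 kb of it. ZNF296, whose mouse counterpart is known as a cofactor in reprogramming to pluripotency, has 6 fingers, and no KRAB box was found in it (hg19 chr19:45574758-45579688). Its level was 6.73 FPKM in shETS1 cells and 10.8 FPKM in shLuciferase cells, with p = 0.0105 and q = 0.348 in the authors' deposited table. ZNF550 (hg19 chr19:58057825-58067725), a KRAB gene, stood at 0.247 FPKM in shETS1 cells and 0.507 FPKM in shLuciferase cells, with p = 0.0225 and q = 0.516 in the authors' deposited table. ZNF550 had the largest difference of the 161, at -1.04 on the log2 scale, from levels near the lowest that were tested.

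The 4 genes with such a p that were higher in shETS1 cells were all KRAB genes with low levels, ZNF320, ZNF493, ZNF627 and ZNF264. ZNF320 stood at 0.790 FPKM in shETS1 cells and 0.512 FPKM in shLuciferase cells, with p = 0.0384 in the authors' deposited table. ZNF493, with 19 fingers, had 0.856 FPKM in shETS1 cells and 0.515 FPKM in shLuciferase cells, with p = 0.0439 in the authors' deposited table. At 0.73 on the log2 scale it was the highest ratio of the 161. ZNF627 stood at 1.56 FPKM in shETS1 cells and 1.01 FPKM in shLuciferase cells, and ZNF264 at 0.871 FPKM in shETS1 cells and 0.602 FPKM in shLuciferase cells, with p = 0.0450 and p = 0.0464 in the authors' deposited table. The lowest q among the 4 was 0.663, for ZNF320, in the authors' deposited table. The 4 genes belong to 4 different clusters along the chromosome.

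Promoters are shown for the genes with the smallest p in each direction for which RefSeq gave one, to set the ETS motif beside the level of the gene. Each runs from 250 bases before the annotated start to 50 bases after it, 5′ to 3′ on the gene's strand, from RefSeq on GRCh38.p14, with the motif CCGGAAG or its reverse complement CTTCCGG in capitals. The order is ZNF296 at chr19:45076429-45076728 (minus strand), ZNF550 at chr19:57559814-57560113 (minus strand), ZNF320 at chr19:52897645-52897944 (minus strand) and ZNF493 at chr19:21396883-21397182 (plus strand).
ZNF296: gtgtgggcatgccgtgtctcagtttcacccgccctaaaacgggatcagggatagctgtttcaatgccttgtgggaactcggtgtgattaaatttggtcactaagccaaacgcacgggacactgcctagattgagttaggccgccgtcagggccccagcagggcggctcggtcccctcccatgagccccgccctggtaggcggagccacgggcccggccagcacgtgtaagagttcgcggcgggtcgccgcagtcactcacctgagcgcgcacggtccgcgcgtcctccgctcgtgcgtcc
ZNF550: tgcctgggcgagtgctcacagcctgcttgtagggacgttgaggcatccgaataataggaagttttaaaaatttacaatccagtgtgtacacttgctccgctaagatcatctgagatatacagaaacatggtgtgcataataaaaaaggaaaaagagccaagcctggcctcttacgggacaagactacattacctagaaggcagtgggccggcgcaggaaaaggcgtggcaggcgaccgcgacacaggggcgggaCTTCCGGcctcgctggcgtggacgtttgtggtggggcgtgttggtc
ZNF320: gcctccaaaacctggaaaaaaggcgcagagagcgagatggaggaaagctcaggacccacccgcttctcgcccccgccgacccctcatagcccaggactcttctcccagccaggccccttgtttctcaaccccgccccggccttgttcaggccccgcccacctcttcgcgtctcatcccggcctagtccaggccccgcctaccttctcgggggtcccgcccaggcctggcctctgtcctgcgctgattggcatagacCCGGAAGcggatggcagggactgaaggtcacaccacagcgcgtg
ZNF493: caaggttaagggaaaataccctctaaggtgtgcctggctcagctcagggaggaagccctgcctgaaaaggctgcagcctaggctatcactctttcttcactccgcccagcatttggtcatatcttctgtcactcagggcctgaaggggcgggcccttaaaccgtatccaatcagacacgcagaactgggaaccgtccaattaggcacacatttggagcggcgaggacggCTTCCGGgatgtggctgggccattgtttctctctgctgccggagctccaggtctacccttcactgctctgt
ZNF296, lower in shETS1 cells, had no match in this window. ZNF550, also lower, had 1 match that began 4 bases after the start. ZNF320, higher in shETS1 cells, had 1 match that began 6 bases after the start, and ZNF493, also higher, had 1 that began 21 bases before it. The motif was thus present in genes of both directions.

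The motif was frequent in these promoters. RefSeq gave a promoter for 211 of the 243 genes, and 94 of them (44.5%) held CCGGAAG on either strand. Of all 35116 promoters that RefSeq gave, 10.3% held it, and among the 9654 tested genes with a promoter 20.1% held it. Among the 165 tested ZNF genes elsewhere with a promoter the share was 40.6%, and among the 145 tested zinc finger genes of chromosome 19 with a promoter it was 46.9%. Within the tested zinc finger genes of chromosome 19, 51.7% of the 118 KRAB genes and 25.9% of the 27 genes without a KRAB box held the motif. Over the tested zinc finger genes of chromosome 19 as a whole, those with and without the motif had close ratios. The median log2 ratio was 0.08 over the 68 tested zinc finger genes of chromosome 19 with the motif, 44 of them above 0, and 0.09 over the 77 without it, 44 of them above 0. Among the KRAB genes the median was 0.11 over the 61 with the motif, 44 of them above 0, and 0.10 over the 57 without it, 34 of them above 0. Among the genes without a KRAB box, the 7 with the motif were all below 0, with a median of -0.19, while 10 of the 20 without it were above 0, with a median of -0.01. Both groups are small, the difference was not tested, and transcript GC content, described below, was not taken into account. Among the tested ZNF genes elsewhere, the median was -0.09 over the 67 with the motif, 26 of them above 0. It was 0.01 over the 98 without it, 51 of them above 0. Among all tested genes the medians were 0.05 with the motif and 0.01 without it. A match is a run of letters, and binding of ETS1 at these promoters was not measured in the files used here.

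By their medians, the zinc finger genes with and without a KRAB box lay on opposite sides of equality. A KRAB box was found in an encoded protein of 203 of the 243 genes and was not found in 36, and 4 genes had no coding sequence to search. Of the KRAB genes 132 were tested (65.0%), and of the genes without one 29 were tested (80.6%). The median level was 0.857 FPKM for the tested KRAB genes and 8.77 FPKM for the tested genes without the box, as means over both groups. Among the 132 KRAB genes 89 had a higher level in shETS1 cells than in shLuciferase cells, with a median log2 ratio of 0.11. Among the 29 genes without a KRAB box 10 were higher in shETS1 cells, with a median of -0.17. Over all 11952 tested genes 6355 were above 0, with a median of 0.02. These are descriptions over genes, which are not replicates, and no gene of either kind was called.

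With a floor of 1 FPKM on the mean of both groups, the KRAB genes, as deposited, stayed above the genes without the box. They also came closer to equality. Of the 81 tested genes above the floor 40 were above 0, with a median log2 ratio of -0.02. The 53 KRAB genes among them had a median of 0.04, with 30 above 0, and the 28 without a KRAB box had a median of -0.16, with 10 above 0. All 10676 tested genes above the floor had a median of 0.02. The ZNF genes elsewhere had the same order: 0.01 for the 49 with a KRAB box and -0.11 for the 101 without it. The other 635 chromosome 19 genes above the floor had a median of -0.12, and 184 of them were above 0.

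Base composition ran beside both patterns. Transcripts of the tested KRAB genes had a median GC content of 42.5%, those of the tested genes without a KRAB box 61.9%, and those of all tested genes 49.6%. Across all tested genes with a transcript in the annotation, GC-poor transcripts had higher ratios of shETS1 to shLuciferase than GC-rich ones, with a Spearman rho of -0.44 across 11672 genes. The same rho across the 161 zinc finger genes of chromosome 19 was -0.44. In transcripts under 40% GC the median log2 ratio was 0.29 over 35 zinc finger genes of chromosome 19 and 0.22 over all 1559 tested genes. From 42% to 45% GC the medians were 0.10 over 42 zinc finger genes and 0.12 over all 1437 genes. From 60% GC upward the medians were -0.16 over 17 zinc finger genes, none with a KRAB box, and -0.15 over all 1971 genes. The widest gap lay from 50% to 60% GC, where 12 zinc finger genes had a median of -0.20 and all 3742 genes had -0.07. Of these 12, the 9 with a KRAB box had a median of -0.20 and the 3 without it -0.26.

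**Figure D2:**
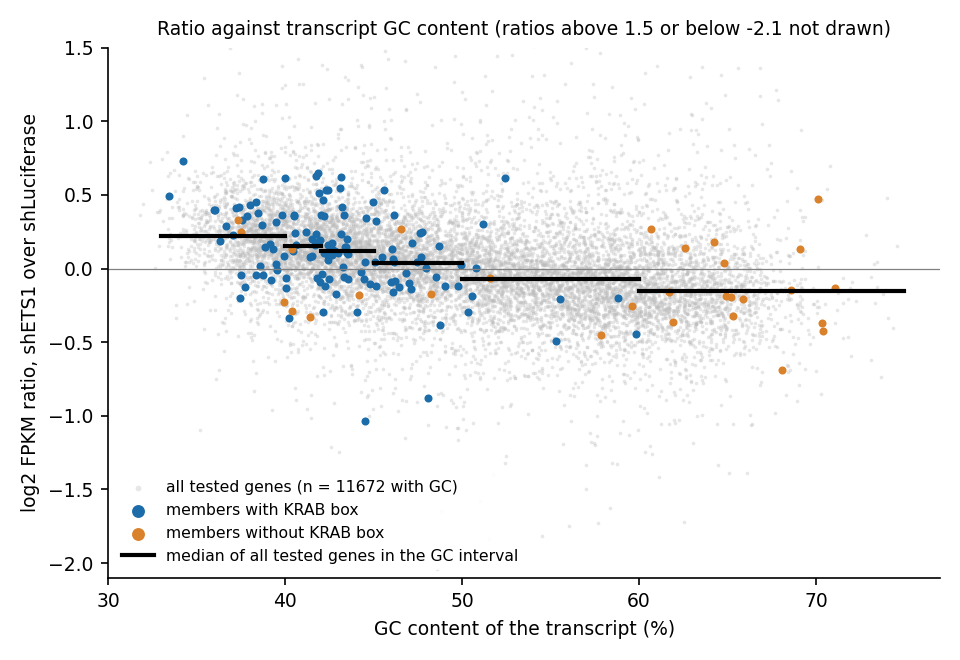
Log2 ratio of FPKM, shETS1 over shLuciferase (vertical axis), against the GC content of the transcript in percent (horizontal axis). Grey points are all tested genes, blue points the tested members with a KRAB box, orange points those without it, and black lines the median of all tested genes in each GC interval. Most KRAB genes sit at the GC-poor end around lines above 0, and most genes without the box sit at the GC-rich end around lines below 0.

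After a cubic trend of the ratio on GC content, fitted over the tested genes above that floor, was taken off, the medians over all tested genes of each kind moved to -0.01 for the KRAB genes and -0.04 for the genes without a KRAB box. Of the 132 KRAB genes 62 were then above 0, and of the 29 others 11 were. Among genes above the floor, the medians after the trend was taken off were -0.05 for the KRAB genes and -0.04 for the others. There, 18 of the 53 KRAB genes and 11 of the 28 others were above 0. The 9 genes without a KRAB box whose transcripts were under 50% GC did not move toward equality. Their median was -0.17 as deposited, with 4 above 0, and -0.20 after the trend was taken off, with 3 above 0. With the floor of 1 FPKM, 8 of these genes were left, and their median was -0.02 as deposited, with 4 above 0. After the trend was taken off, the median of those 8 was -0.12, with 3 above 0. The other 689 chromosome 19 genes moved to -0.01. The part of GC content in the ratios was not tested, and the files hold no values per sample with which to ask whether it lies in 1 library. Level went with the ratio as well: Spearman's rho with the mean level was -0.41 across the 161 genes and -0.14 across all tested genes. After the GC trend was taken off, these values were -0.17 and -0.0066. The number of fingers in the protein and the length of the transcript had weak relations with the ratio, at a rho of 0.13 and 0.15 across the 161 genes. These rho values are across genes that share 2 pooled measurements and related sequences.

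**Figure D3:**
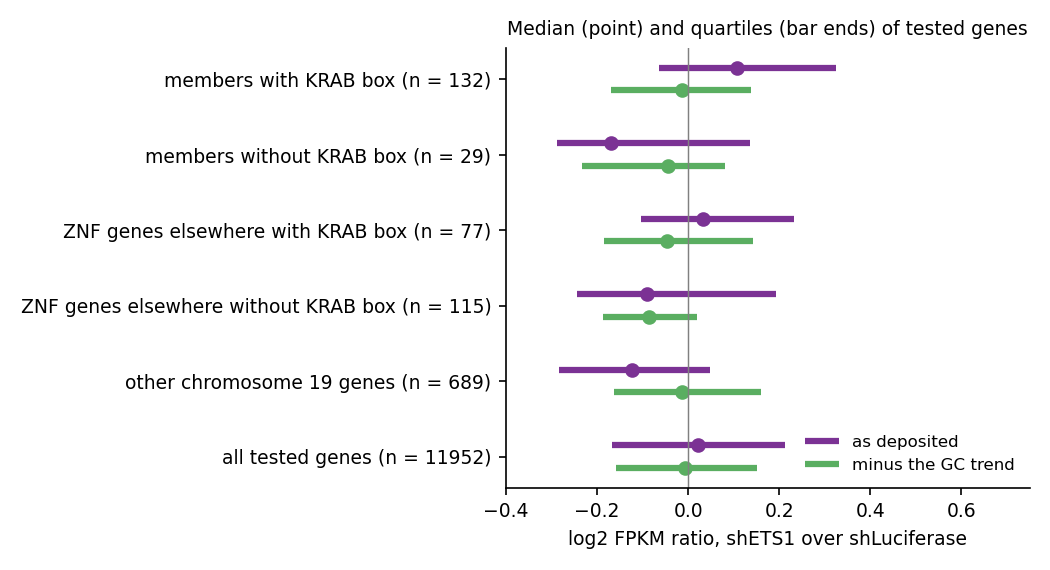
Log2 ratio of FPKM, shETS1 over shLuciferase (horizontal axis), for the tested genes of each set. Points are medians and bar ends are quartiles over genes, in purple as deposited and in green after the trend on transcript GC content was taken off. The medians of members with and without a KRAB box, 0.11 and -0.17 as deposited, come to -0.01 and -0.04.

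The genes without a KRAB box included the most abundant ones. No KRAB box was found in any of the 14 zinc finger genes of chromosome 19 with a mean of at least 10 FPKM. Of the 10 most abundant, 8 were lower in shETS1 cells than in shLuciferase cells, none past the test. ZNF787, the most abundant, stood at 60.5 FPKM in shETS1 cells and 78.0 FPKM in shLuciferase cells, with p = 0.119 in the authors' deposited table. ZNF581 stood at 50.6 FPKM in shETS1 cells and 60.4 FPKM in shLuciferase cells, and ZNF580, linked to endothelial cell migration, at 19.1 FPKM in shETS1 cells and 21.3 FPKM in shLuciferase cells. ZNF580 and ZNF581 share 1 locus in the table, so reads could be divided between them. ZNF444, which carries a SCAN domain for pairing with other zinc finger proteins, stood at 30.2 FPKM in shETS1 cells and 33.4 FPKM in shLuciferase cells.

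The rest of the most abundant genes had similar differences. ZNF574 stood at 22.0 FPKM in shETS1 cells and 28.2 FPKM in shLuciferase cells. ZNF428 was at 19.3 FPKM in shETS1 cells and 24.1 FPKM in shLuciferase cells, in a locus that it shares with ZNF576. ZNF579 was at 15.5 FPKM in shETS1 cells and 17.9 FPKM in shLuciferase cells, and ZNF524 at 14.2 FPKM in shETS1 cells and 16.1 FPKM in shLuciferase cells. The exceptions were ZNF358, at 29.7 FPKM in shETS1 cells and 27.0 FPKM in shLuciferase cells, and ZNF414, at 24.7 FPKM in shETS1 cells and 22.5 FPKM in shLuciferase cells. Over all 24 genes with a mean of at least 5 FPKM, 19 were lower in shETS1 cells, and no KRAB box was found in 18 of the 24. From 5 to 20 FPKM the median log2 ratio was -0.21 over 16 of them and 0.03 over all 3594 tested genes. From 20 FPKM upward it was -0.21 over 8 of them and -0.03 over all 3736 tested genes. None of the 24 was called.

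Other genes with large ratios above the floor of 1 FPKM are given by their levels. On the lower side, ZNF584 stood at 4.58 FPKM in shETS1 cells and 6.43 FPKM in shLuciferase cells, with p = 0.0672 in the authors' deposited table. ZNF526 was at 8.93 FPKM in shETS1 cells and 12.2 FPKM in shLuciferase cells, and ZNF628 at 9.48 FPKM in shETS1 cells and 12.7 FPKM in shLuciferase cells. ZNF324B was at 1.73 FPKM in shETS1 cells and 2.35 FPKM in shLuciferase cells, and ZNF8 at 2.08 FPKM in shETS1 cells and 2.71 FPKM in shLuciferase cells. ZNF584, ZNF324B and ZNF8 are KRAB genes at the telomeric end of the long arm, with transcripts richer in GC than most KRAB genes here.

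On the higher side, ZNF726 stood at 2.21 FPKM in shETS1 cells and 1.45 FPKM in shLuciferase cells, and ZNF700 at 1.98 FPKM in shETS1 cells and 1.39 FPKM in shLuciferase cells. ZNF101 was at 3.69 FPKM in shETS1 cells and 2.70 FPKM in shLuciferase cells. ZNF160 was at 1.47 FPKM in shETS1 cells and 1.10 FPKM in shLuciferase cells, and ZNF791 at 2.79 FPKM in shETS1 cells and 2.17 FPKM in shLuciferase cells. ZNF837, in which no KRAB box was found, was at 1.20 FPKM in shETS1 cells and 0.863 FPKM in shLuciferase cells. ZNF260, also without the box, was at 1.19 FPKM in shETS1 cells and 0.950 FPKM in shLuciferase cells. The ratios of these 7 genes lay between 0.33 and 0.61 on the log2 scale, and the lowest p among them was 0.0935, for ZNF700, in the authors' deposited table.

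None of the repressors with known targets was called. ZNF91, with 32 fingers, silences SVA and L1 retrotransposons in primates, and stood at 0.591 FPKM in shETS1 cells and 0.505 FPKM in shLuciferase cells. ZNF93, which binds older L1 elements, was not tested, at 0.399 FPKM in shETS1 cells and 0.316 FPKM in shLuciferase cells. ZNF43 stood at 0.525 FPKM in shETS1 cells and 0.398 FPKM in shLuciferase cells, and ZNF85 was untested, at 0.269 FPKM in shETS1 cells and 0.215 FPKM in shLuciferase cells. All 4 lie in the same cluster and share long runs of similar sequence, so their levels may depend on how the authors' program shared out reads that match several genes. ZNF649, a repressor of growth factor response elements, was at 0.621 FPKM in shETS1 cells and 0.555 FPKM in shLuciferase cells.

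ZNF274, which marks the coding ends of other zinc finger genes for SETDB1, had nearly equal levels, at 7.23 FPKM in shETS1 cells and 7.22 FPKM in shLuciferase cells. ZNF224, a repressor of the aldolase A gene, stood at 0.910 FPKM in shETS1 cells and 1.15 FPKM in shLuciferase cells, with p = 0.313 in the authors' deposited table. ZNF350 (ZBRK1), which works with BRCA1 to repress GADD45A, stood at 1.27 FPKM in shETS1 cells and 1.20 FPKM in shLuciferase cells. ZNF331, an imprinted gene, was at 1.98 FPKM in shETS1 cells and 1.53 FPKM in shLuciferase cells. ZNF175 (OTK18), known for repressing the HIV promoter, was at 1.34 FPKM in shETS1 cells and 1.06 FPKM in shLuciferase cells, and ZNF304 at 0.973 FPKM in shETS1 cells and 0.874 FPKM in shLuciferase cells.

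Of the other genes with a known role, ZNF473 acts in the processing of histone messenger RNA and stood at 1.95 FPKM in shETS1 cells and 2.19 FPKM in shLuciferase cells. ZNF146 (OZF), a protein made almost wholly of fingers and overexpressed in some carcinomas, stood at 10.6 FPKM in shETS1 cells and 13.4 FPKM in shLuciferase cells, in a locus that overlaps ZNF565. ZNF382, often silenced by methylation in tumours, was untested, at 0.294 FPKM in shETS1 cells and 0.165 FPKM in shLuciferase cells. ZNF568, whose mouse counterpart represses placental Igf2, was untested, at 0.110 FPKM in shETS1 cells and 0.117 FPKM in shLuciferase cells. ZNF667 was listed at 0 in both groups.

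Position along the chromosome was examined by grouping the 243 genes into clusters, with a new cluster wherever neighbouring members lay more than 500 kb apart. This gave 20 clusters, of which 8 held at least 5 tested genes. The clusters are numbered in chromosomal order. Cluster 6 (hg19 chr19:19779663-24312654), beside the centromere, held 33 genes, of which 14 were tested and 4 were listed at 0 in both groups. All 14 were higher in shETS1 cells than in shLuciferase cells, with log2 ratios between 0.19 and 0.73 and a median of 0.41. Of the 14, 13 carry a KRAB box. Their levels ran between 0.458 and 3.69 FPKM in shETS1 cells and between 0.342 and 2.70 FPKM in shLuciferase cells. Of the 14, ZNF493 alone had an unadjusted p of at most 0.05 in the authors' deposited table. Only 3 of the 14 reached a mean of 1 FPKM. Among all 80 tested zinc finger genes of chromosome 19 under 1 FPKM, 59 were above 0, with a median log2 ratio of 0.17. Over all 1276 tested genes under 1 FPKM, 743 were above 0, with a median of 0.08.

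**Figure D4:**
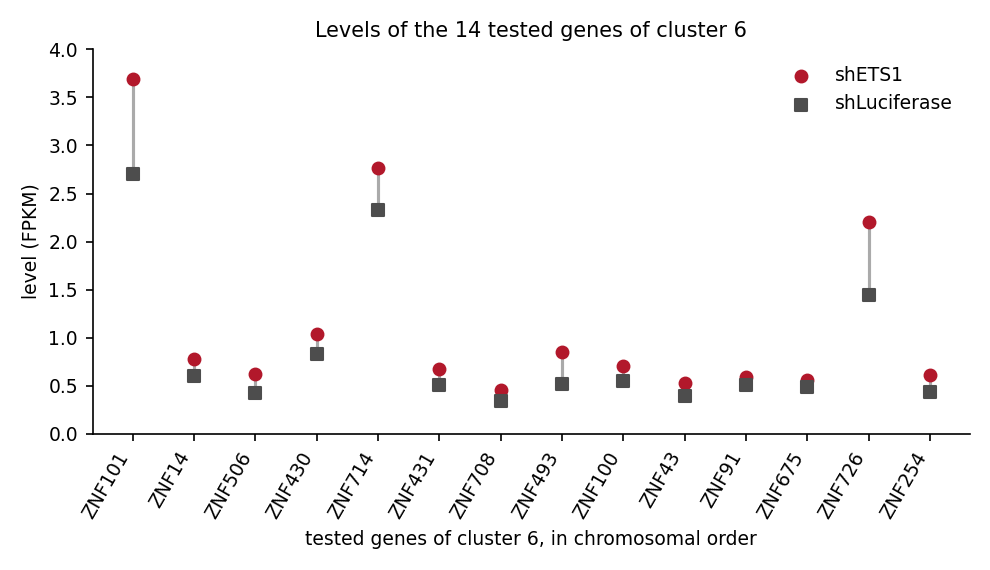
Level in FPKM (vertical axis, from 0) of the 14 tested genes of cluster 6 in chromosomal order (horizontal axis), as red circles in shETS1 cells and grey squares in shLuciferase cells. Each point is the authors' single value for the group, without error. The circle lies above the square for all 14 genes, by the widest margins for ZNF101, ZNF726 and ZNF714.

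Transcripts of the 14 tested genes in cluster 6 had a median GC content of 37.4%, lower than the median of every other cluster with at least 5 tested genes. After the GC trend was taken off, 12 of the 14 stayed above 0 and the median was 0.17. No tested gene that was not a zinc finger gene lay inside the cluster. Beyond ZNF493, ZNF726 and ZNF101, the cluster included ZNF506, at 0.628 FPKM in shETS1 cells and 0.431 FPKM in shLuciferase cells, and ZNF254, at 0.608 FPKM in shETS1 cells and 0.431 FPKM in shLuciferase cells. ZNF714, the tested gene of the cluster in which no KRAB box was found, was at 2.77 FPKM in shETS1 cells and 2.33 FPKM in shLuciferase cells. These are neighbouring duplicates, so 14 genes in 1 direction are not 14 independent measurements.

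Cluster 18 (hg19 chr19:52074531-54083523) held 38 genes, of which 26 were tested, all with a KRAB box. Of the 26, 22 were higher in shETS1 cells, with a median log2 ratio of 0.15. After the GC trend was taken off, 12 were above 0 and the median was -0.01. ZNF320, ZNF160, ZNF331, ZNF175 and ZNF350 belong to it. In cluster 4 (hg19 chr19:11594242-12740676), which includes ZNF627, ZNF700 and ZNF791, 10 of 14 tested genes were higher in shETS1 cells, with a median of 0.22, and 0.13 after the GC trend was taken off.

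Cluster 19 (hg19 chr19:55987699-57183123) had the lowest median of the 8 as deposited, at -0.19. Of its 11 tested genes 2 carry a KRAB box, 9 were lower in shETS1 cells, and the median GC content was 64.9%. It holds ZNF787, ZNF581, ZNF444, ZNF580, ZNF579, ZNF524 and ZNF628, and its median was -0.04 after the GC trend was taken off. ZNF583, a KRAB gene inside it with a GC-poor transcript, had the opposite sign, at 0.434 FPKM in shETS1 cells and 0.317 FPKM in shLuciferase cells. After the GC trend was taken off, cluster 13 had the lowest median of the 8, at -0.17. With clusters split only at gaps over 1 Mb, cluster 19 joined cluster 20, and their 45 tested genes had a median of -0.07.

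In cluster 13 (hg19 chr19:44010871-45004574) the 17 tested genes, 14 with a KRAB box, had a median GC content of 42.9%, and 11 were lower in shETS1 cells. The median log2 ratio was -0.06. After the GC trend was taken off, 4 were above 0 and the median was -0.17. ZNF224 belongs to it, and ZNF235 stood at 1.69 FPKM in shETS1 cells and 2.07 FPKM in shLuciferase cells. The 9 other tested genes within its bounds had a median of 0.16. The remaining clusters lay close to equality, with medians of 0.06 for cluster 3, 0.09 for cluster 10 and 0.01 for cluster 20, the last with 34 tested genes, the most of any cluster. After the GC trend was taken off, their medians were -0.08, -0.06 and -0.03, and 1 of the 9 tested genes of cluster 3 was above 0. None of the differences between clusters was tested.

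**Figure D5:**
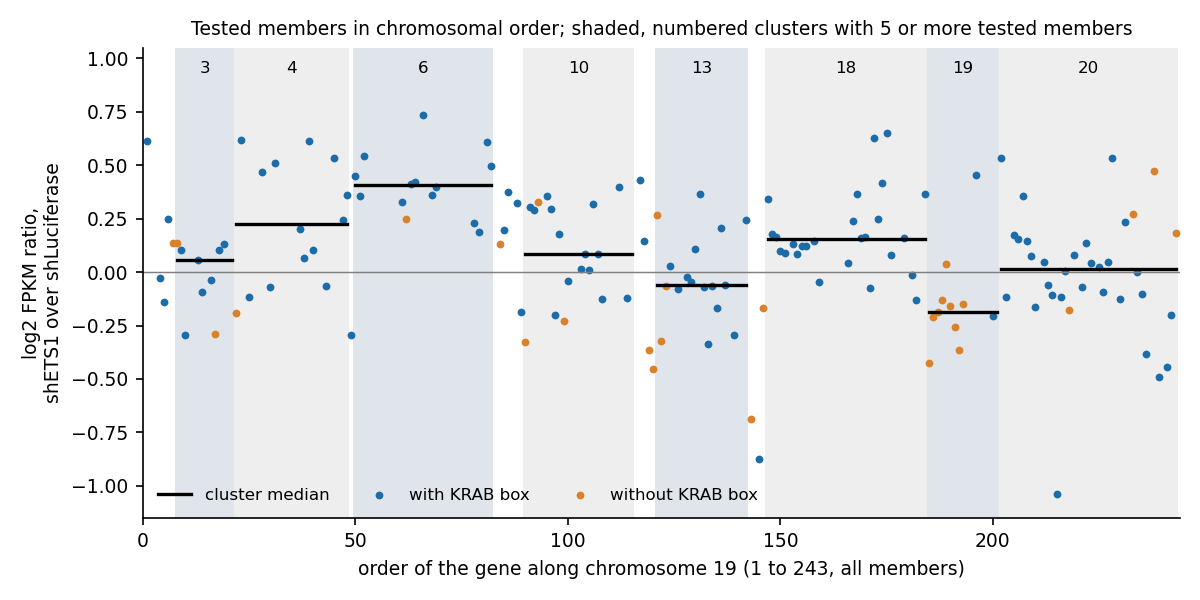
Log2 ratio of FPKM, shETS1 over shLuciferase (vertical axis), of the 161 tested genes at their place in the order of all 243 along chromosome 19 (horizontal axis, short arm to long arm). Shading and numbers mark the 8 clusters with at least 5 tested genes, and black lines their medians. Cluster 6 lies wholly above 0 with a median of 0.41, and cluster 19 has the lowest median, -0.19.

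The proteins through which KRAB genes act were listed as a group of cofactors. All 32 listed cofactors of KRAB silencing were tested and none was called. Of the 32, 16 were above 0 and 16 below, with a median log2 ratio of -0.0011, and their ratios lay between -0.35 and 0.65. TRIM28, which the KRAB box binds, stood at 801 FPKM in shETS1 cells and 880 FPKM in shLuciferase cells, and SETDB1, the histone H3 lysine methyltransferase it recruits, at 7.41 FPKM in shETS1 cells and 8.79 FPKM in shLuciferase cells. CBX5, which encodes HP1 alpha, was the single cofactor with an unadjusted p of at most 0.05, at 18.5 FPKM in shETS1 cells and 11.8 FPKM in shLuciferase cells, with p = 0.00505 and q = 0.222 in the authors' deposited table. CBX1 and CBX3, for the other HP1 proteins, stood at 44.6 and 86.4 FPKM in shETS1 cells and at 43.0 and 66.0 FPKM in shLuciferase cells.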

How the data were processed

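RNA of HEYA8 cells was profiled in 3 shETS1 and 3 shLuciferase samples. Per the labels' protocols, polyadenylated RNA was copied with random hexamers and no strand-marking step is described. The submitters' processing notes name Cufflinks 2.1.1, SAMtools 0.1.18, Bowtie2 2.0.6 and TopHat2 2.0.7, and the build hg19. The authors deposited 1 FPKM value per gene and group, with p-values, q-values and a test score, which was not used, per the file headers. Adjusting the deposited p-values by Benjamini-Hochberg over the tested rows gave the deposited q-values within 5.16e-07. For the annotation and the scaling between libraries, the methods were not given in the sources used here, and depth is unknown.

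Log2 ratios of shETS1 over shLuciferase were computed from the FPKM values without a pseudocount, in Python 3.11.15 with pandas 2.3.3 and numpy 2.4.6, after a check on simulated data. Genes were called at q of at most 0.05. GC content and finger numbers came from the transcript with the longest coding sequence in GENCODE 29 (GRCh38). KRAB boxes were searched in the proteins of all coding transcripts of a gene. Proteins were translated from these transcripts, because no protein table was given. All 243 genes matched by current or older symbol, as did 98.1% of genes with a mean of at least 1 FPKM. A KRAB box was a window of 36 residues with at least 50% identity to a consensus of these proteins. Genes described as without the box are those in which no window reached this identity, so a more diverged box would be missed. The lowest identity in a gene with the box was 55.6%, and the highest in a gene without it was 47.2% (ZNF446). Named genes were those with p or q of at most 0.05, the 10 highest and 10 lowest ratios above 1 FPKM, the 10 most abundant and a list with known roles. ZNF235, ZNF254, ZNF506, ZNF583, ZNF714 and ZNF724P were chosen after their values were seen. The members and lists were chosen with earlier results of these data known.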

Additional observations from a re-analysis of the deposited data

How the results depend on the processing

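No value per sample was given, so leaving out each replicate in turn was not run. No paired analysis was possible because the table holds 1 value per group and its columns carry no replicate numbers. At an unadjusted p of at most 0.05 the authors' deposited table had 4 higher and 3 lower, and at q of at most 0.10 it had 1 lower. The median log2 ratio of the 81 genes above 1 FPKM, -0.02, became 0.087 over all tested genes of the family on chromosome 19 and -0.21 with a floor of 5 FPKM. The share above 0, 49.4%, became 61.5% without the floor, 20.8% with a floor of 5 FPKM and 35.8% with the GC trend removed. The KRAB median, 0.04, became 0.11 without the floor. With the GC trend removed it became -0.048, and the median without the box, -0.16, became -0.044. With the GC trend removed, the medians of clusters 6, 13 and 18 became 0.17, -0.17 and -0.011, against 0.41, -0.06 and 0.15. The cause of these shifts was not tested. Values outside the 95% interval of the main one, from order statistics for medians and Wilson's formula for the share, count as moved. These intervals treat genes as independent, which related neighbours are not, so moved is a label and not a test. The shifts of the medians with and without a KRAB box on removing the GC trend did not count as moved. Of all 243 genes, 47 have a locus that overlaps another row. Without those, the median over the 64 genes left above 1 FPKM was 0.0020.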
